A study of Saccharomyces cerevisiae with 44 samples.

Results

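The genes described here begin a short way past the end of a small nucleolar or small nuclear RNA gene (snoRNA or snRNA), where a polymerase that fails to stop after the small RNA could run into them. They are the 40 rows of category gene, of 6575 in the deposited table, whose 5' end lies 0 to 1000 bp past the 3' end of a snoRNA or snRNA row on the same chromosome and strand. The table held 77 snoRNA and 6 snRNA rows, and positions alone chose the genes. Of the 40, 37 followed a snoRNA and 3 an snRNA (TOS2 after snR7-L, TMA20 after snR14 and OM14 after LSR1). They were downstream of 38 distinct small RNAs, because YCL007C and STP22 both followed snR43, and YOR277C and RIM20 both followed snR31.

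Small nucleolar RNAs guide the chemical modification and cutting of ribosomal RNA, and most yeast ones are transcribed by RNA polymerase II from their own promoters. Their transcription does not end by the cleavage and polyadenylation that ends mRNAs. It ends through the Nrd1 complex, in which Nab3 and Nrd1 bind short motifs in the new RNA and the helicase Sen1 releases the polymerase, and the nuclear exosome with its nuclease Rrp6 then trims the 3' end or destroys the extended product. TRS31 after snR13, CTO1 (YCR015C) after snR33 and YDR042C after snR47 are among the genes into which transcription is known to run in Nrd1-pathway mutants of growing yeast.

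RNA of Saccharomyces cerevisiae strain W303 was read in 44 libraries that form 22 groups of 2. Nascent RNA here means the RNA labelled with 4-thiouracil in 4tU-seq, and steady-state RNA the total RNA of ordinary RNA-seq. The auxin set held Nab3-AID and OsTIR-AID cells, both given auxin (IAA) at 1 mg/ml, in both fractions. These were quiescent cells of day 7 from saturated YEP cultures that began with 2% glucose, separated by a gradient. An AID tag marks a protein for destruction through the plant receptor OsTIR once auxin is present. The deletion sets held rrp6Δ and wild-type (WT) cells, as purified quiescent cells of day 8 in both fractions, and in steady-state RNA only as cells held in G1 by the mating pheromone alpha factor (5 µg/ml, repeated at 90 min where needed) and as cells taken 2 h before the diauxic shift, when glucose runs out, and 2 h, 24 h and 48 h after it. A last set, made with another library kit, held WT quiescent cells of day 7 and WT G1 cells in both fractions. The replicates of a group carried different strain numbers, and the design text calls them biological. With 2 libraries per group, p-values measure the spread between these strains, which may be technical in part.

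The libraries held 1199153 to 11866494 reads on rows of category gene, of 8394823 to 68400863 reads in all, and the 40 genes took 0.378% to 1.63% of the reads on genes. The targeted gene RRP6 was lower in rrp6Δ in every one of its 7 comparisons, by -3.40 to -5.66 on the log2 scale. NAB3 mRNA changed little in Nab3-AID (-0.27 ± 0.11 in nascent and -0.53 ± 0.11 in steady-state RNA), which checks nothing, since auxin acts on the protein. As a check of the states, the pheromone-induced FUS1 lay at 975 to 1966 CPM in G1 libraries and at 4.84 to 36.0 CPM in quiescent ones, while the stationary-phase gene SPG4 lay at 343 to 8200 CPM in quiescent libraries and at 1.93 to 14.2 CPM in G1 libraries. CPM scales the counts of a library to a total of 1000000 reads on genes after TMM scaling. Changes are log2 fold changes ± standard error from edgeR's quasi-likelihood test with n = 2 libraries a group, and a gene is called higher or lower where the Benjamini-Hochberg adjusted p over all rows was under 0.05.

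The 5' ends of the 40 genes lay 86 to 997 bp past the small RNA, with a median of 392 bp, and 25 of them within 500 bp. The nearest was YMR013W-A at 86 bp after snR74, followed by YOR277C at 135 bp and YCL007C at 138 bp. CAF40 at 997 bp after snR40 was the last inside the window, and OXR1 at 1139 bp after snR59 and HMT1 at 1209 bp after snR161 were the first outside it. By annotation 31 were verified genes, 4 uncharacterized (CTO1, SDD3, YDR042C and IMO32) and 5 dubious reading frames (YMR013W-A, YOR277C, YCL007C, YDR526C and YOR041C). Another gene on the same strand lay in the gap of UBX6, MDM30, STP22 and RIM20. For MDM30 the small RNA itself, snR44, lies in an intron of that other gene, YLR367W. A gene on the other strand overlapped 7 of the 40. YMR013W-A had 0 reads in all 44 libraries and was never tested, so 39 genes were tested in the auxin set and around the shift, 38 in the day 8 quiescent set and 37 in the WT quiescence and G1 set.

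**Figure D1:**
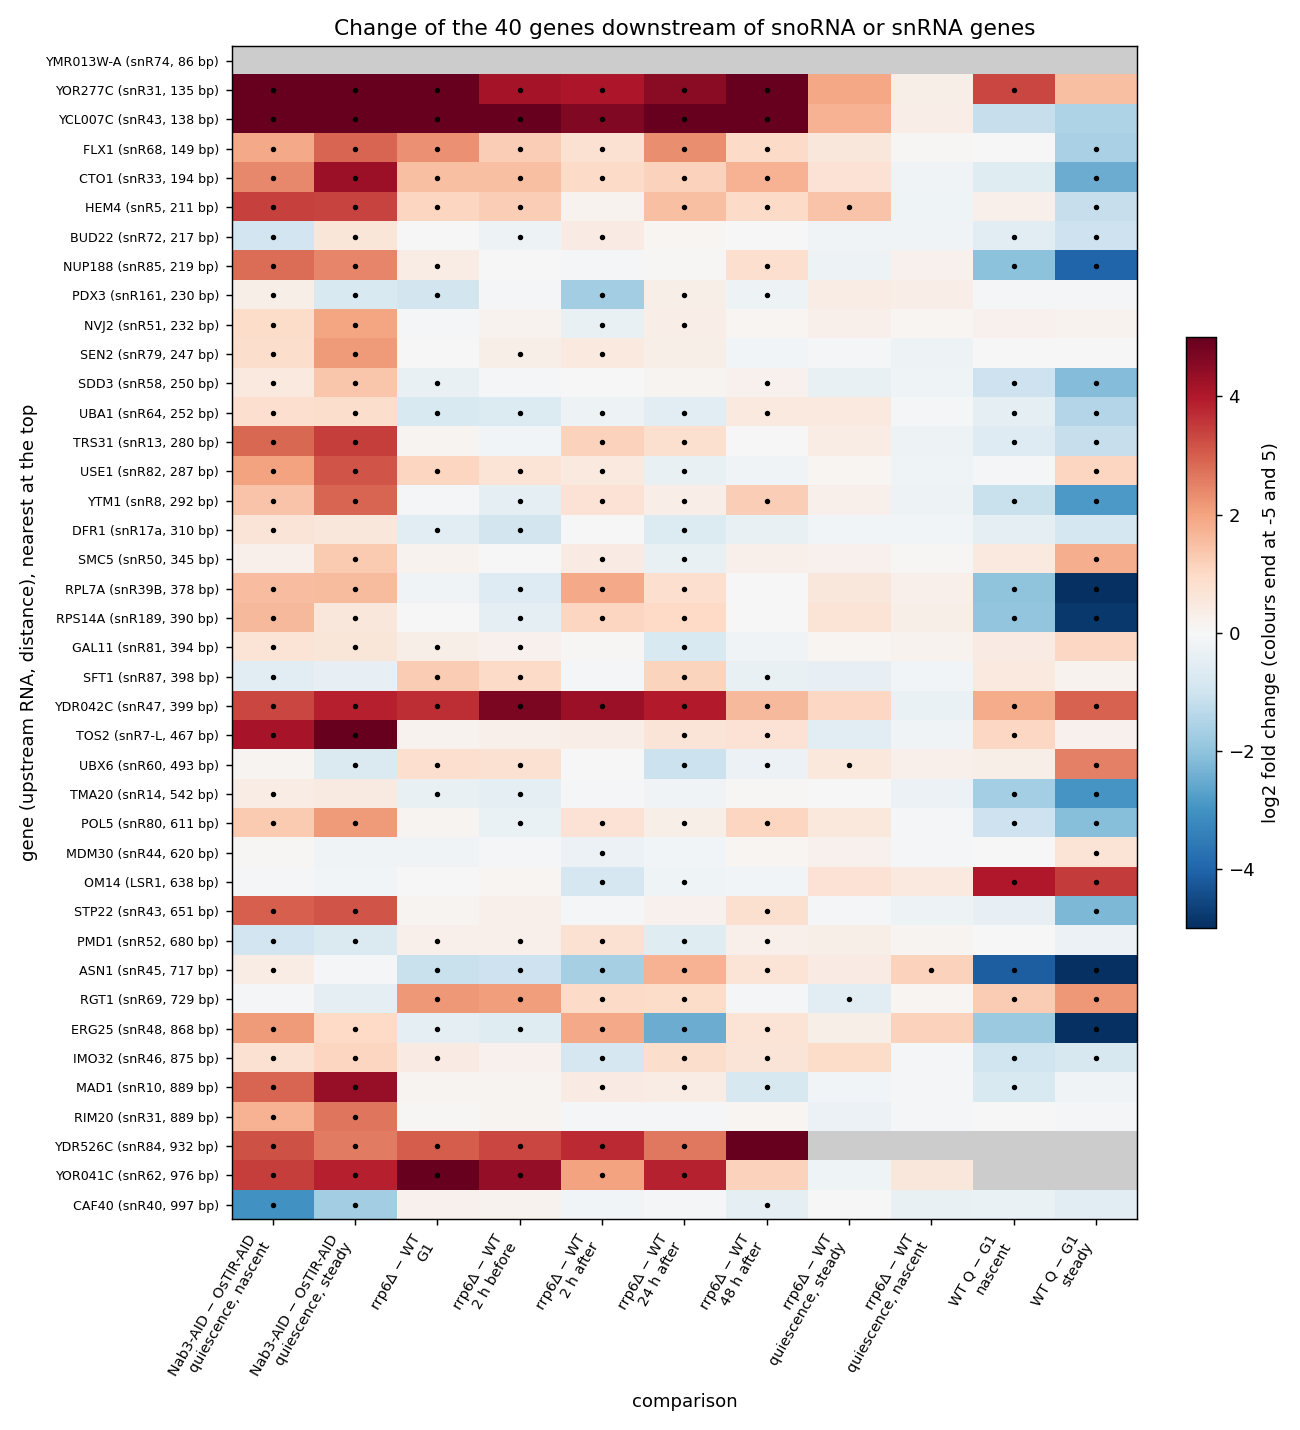
Log2 fold change of each of the 40 genes (rows, ordered by distance from the snoRNA or snRNA, nearest at the top) in 11 comparisons (columns). Dots mark changes with an adjusted p under 0.05 and grey cells were not tested. The 2 Nab3-AID columns are mostly red, with 30 and 28 genes higher, the 5 rrp6Δ columns in G1 and around the shift are mixed, and the 2 rrp6Δ quiescent columns hold 4 dots in all.

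Quiescent Nab3-AID cells given auxin had higher RNA over most of these genes. The data hold no measure of Nab3 protein. Against OsTIR-AID, nascent RNA of Nab3-AID was higher over 30 of 39 genes and lower over 4, where 36.2% of all rows tested were higher and 32.2% lower. The median change was 1.30 over the 39 genes and 0.02 over all genes tested. The steady-state fraction gave 28 higher and 4 lower, against 31.7% and 31.0% of all rows, with a median of 1.59 and of 0.10 over all genes. Of the 39, 26 were higher in both fractions, against 23.5% of all rows, and PMD1 and CAF40 were lower in both, against 22.7%. These are purified cells in bulk, in which a change of RNA in each cell and a change in the share of cells that hold the RNA cannot be told apart. The same comparison was also scaled to the reads of the added yeast Kluyveromyces lactis, whose amount the labels do not give. There the all-gene median shifted by 1.10 in nascent and 1.72 in steady-state RNA, and it gave 35 higher and 1 lower in nascent RNA, and 37 higher and 0 lower in steady-state RNA (edgeR with K. lactis factors). Over all genes this scaling gave 3945 higher and 115 lower in nascent RNA, and 5127 and 95 in steady-state RNA. The excess of the 39 genes' median over that of all genes was about the same either way, 1.23 with K. lactis and 1.27 with TMM in nascent RNA, and 1.47 and 1.49 in steady-state RNA.

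Genes that follow tandemly on another protein-coding gene within the same distance were the closest class to compare. Of 2861 such genes tested, nascent RNA of Nab3-AID was higher for 30.1% and lower for 38.6%, with a median of -0.08, and steady-state RNA was higher for 27.7% and lower for 34.3%. Of 30 genes that start on the other side of a small RNA gene and run away from it, nascent RNA was higher for 14 and lower for 7.

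TRS31, which encodes a subunit of the TRAPP vesicle-tethering complex, lies on chromosome IV at 1403322 to 1404173 (plus strand, sacCer3/R64), 280 bp past snR13. Its nascent level was 423.1 and 440.6 CPM in Nab3-AID, against 58.6 and 61.0 CPM in OsTIR-AID. Its steady-state level was 644.4 and 653.2 CPM in Nab3-AID, against 61.3 and 55.6 CPM in OsTIR-AID. The groups stood far apart in both fractions, and the changes were 2.85 ± 0.10 (adjusted p = 1.51e-11) and 3.47 ± 0.12 (adjusted p = 1.9e-11).

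CTO1 lies on chromosome III at 141217 to 142170 (minus strand), 194 bp past snR33. It was read at 156.5 and 144.0 CPM in nascent RNA of Nab3-AID, against 29.1 and 28.0 CPM in OsTIR-AID, and at 171.9 and 191.6 CPM in steady-state RNA of Nab3-AID, against 9.25 and 9.47 CPM in OsTIR-AID. Both replicates of Nab3-AID lay above both of the control, by 2.39 ± 0.12 (adjusted p = 3.93e-10) in nascent and by 4.27 ± 0.22 (adjusted p = 4.19e-10) in steady-state RNA. YDR042C, on chromosome IV at 540601 to 541203 (minus strand) and 399 bp past snR47, had 112.2 and 132.5 CPM in nascent RNA of Nab3-AID, against 14.3 and 8.90 CPM in OsTIR-AID, and was 3.35 ± 0.27 higher (adjusted p = 2.3e-06). In steady-state RNA it was 3.89 ± 0.38 higher (adjusted p = 1.18e-05). All 3 known readthrough genes were thus far above the control in both fractions of quiescent cells.

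The dubious reading frames next to snR43 and snR31 gave the largest changes. They are small annotated frames that no protein is known from, and each overlaps a gene on the other strand, so the row serves here as a reading of the stretch behind the snoRNA. With 0 to 12 reads in each OsTIR-AID library, both rows passed the filter on low counts through the Nab3-AID libraries, where they are high, so their being tested and the rank of their change rest on that. YCL007C, on chromosome III at 106974 to 107366 (minus strand), had 218.2 and 326.9 CPM in nascent RNA of Nab3-AID, against 2.65 and 1.59 CPM in OsTIR-AID, a change of 6.92 ± 0.53 (adjusted p = 6.95e-05). In steady-state RNA it had 2266 reads over the Nab3-AID libraries and 1 read over the OsTIR-AID libraries, a ratio of 695 with a 95% counting interval of 125 to 27500. YOR277C, on chromosome XV at 841515 to 841823 (minus strand), had 92.5 and 104.7 CPM in nascent RNA of Nab3-AID, against 2.65 and 2.86 CPM in OsTIR-AID, a change of 5.15 ± 0.28 (adjusted p = 1.63e-09). Its steady-state reads were 767 in Nab3-AID and 1 in OsTIR-AID, a ratio of 235 with an interval of 42.1 to 9300. Intervals from reads cover counting error only. The other tested dubious frames, YOR041C after snR62 and YDR526C after snR84, were also higher in both fractions, and YDR526C did not pass 10 CPM in any library of the auxin set. With 1 to 10 reads in each OsTIR-AID library, these frames too passed the filter through the Nab3-AID libraries.

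The next genes along from both frames rose too. STP22, which encodes an ESCRT-I subunit that sorts membrane proteins to the vacuole, begins 651 bp past snR43 behind YCL007C. Its nascent level was 551.8 and 801.1 CPM in Nab3-AID, against 75.2 and 98.2 CPM in OsTIR-AID, 2.97 ± 0.40 higher (adjusted p = 0.00205). RIM20, a component of the Rim101 pathway that senses alkaline pH, begins 889 bp past snR31 behind YOR277C. It had 472.5 and 622.3 CPM in nascent RNA of Nab3-AID, against 160.3 and 166.2 CPM in OsTIR-AID, 1.75 ± 0.19 higher (adjusted p = 4.52e-05). In steady-state RNA the changes were 3.16 ± 0.44 for STP22 and 2.67 ± 0.23 for RIM20. In each of the 4 genes at these loci replicate 2 of Nab3-AID was the higher of the pair.

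HEM4, which makes uroporphyrinogen III for heme and follows snR5 at 211 bp, had 177.6 and 160.7 CPM in nascent RNA of Nab3-AID, against 17.4 and 14.0 CPM in OsTIR-AID, 3.41 ± 0.14 higher (adjusted p = 7.85e-11). TOS2, which follows the snRNA snR7-L at 467 bp, had 217.9 and 338.4 CPM in Nab3-AID, against 14.8 and 17.5 CPM in OsTIR-AID, 4.12 ± 0.44 higher (adjusted p = 0.000535). Neither gene's groups came near each other in nascent RNA, and both were higher in steady-state RNA as well, by 3.37 ± 0.21 and 5.13 ± 0.59.

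Genes of very different function were among those that rose. NUP188, a large scaffold protein of the nuclear pore, had 395.7 and 435.2 CPM in nascent RNA of Nab3-AID, against 60.6 and 59.4 CPM in OsTIR-AID. MAD1, a spindle checkpoint protein with its start 889 bp past snR10, had 686.9 and 783.6 CPM in Nab3-AID, against 103.0 and 91.8 CPM in OsTIR-AID. Both sets of libraries were wide apart, and the changes were 2.79 ± 0.14 and 2.91 ± 0.12. In steady-state RNA MAD1 was 4.37 ± 0.16 higher, at 843.2 and 1026 CPM in Nab3-AID against 41.6 and 48.5 CPM in OsTIR-AID. The SNARE gene USE1 was 2.00 ± 0.11 higher in nascent and 3.16 ± 0.14 higher in steady-state RNA. The mitochondrial FAD carrier gene FLX1 was 1.88 ± 0.15 and 2.91 ± 0.26 higher.

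**Figure D2:**
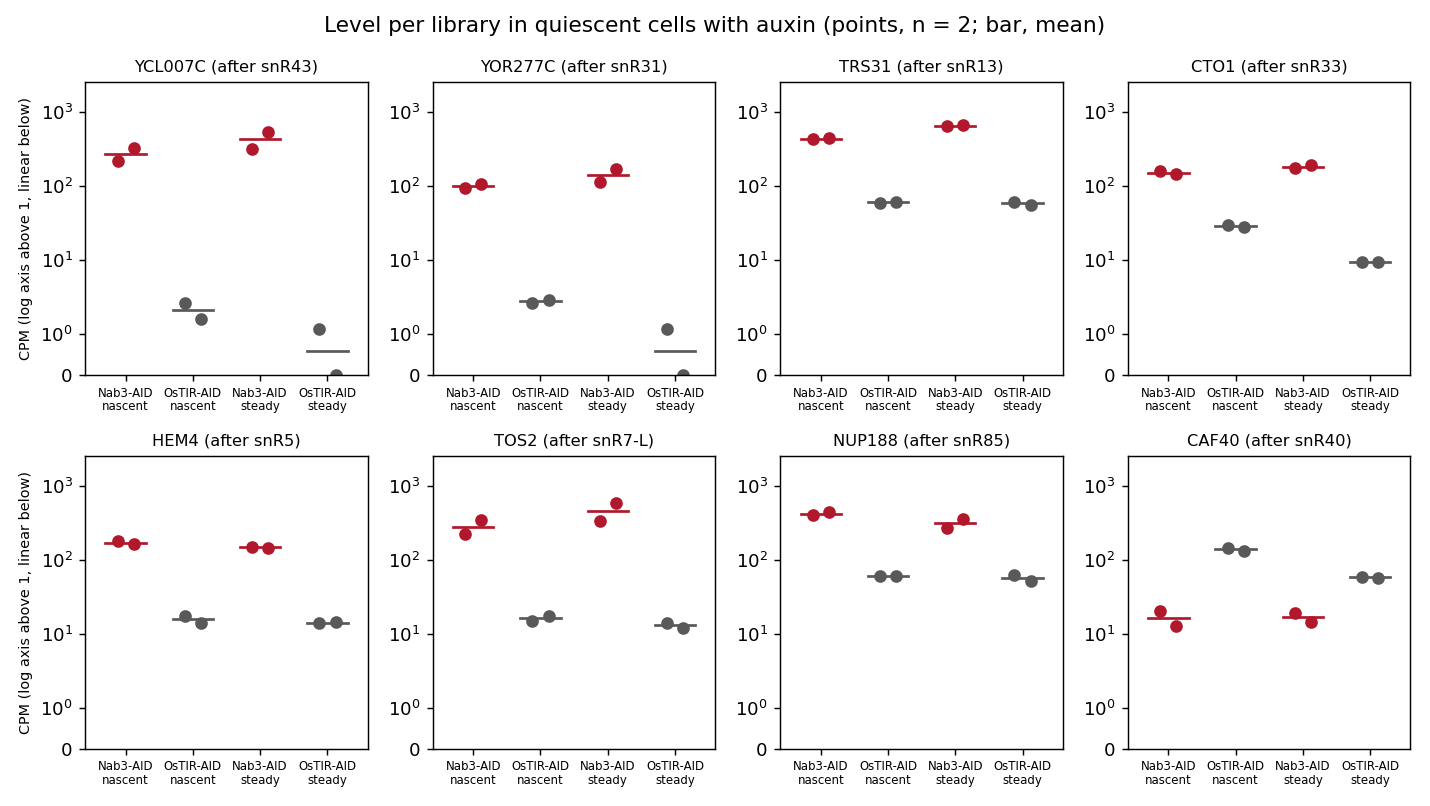
Level in CPM (log axis above 1, linear below) of 8 of the genes in each quiescent library with auxin, as points for the 2 replicates with a bar at their mean, Nab3-AID in red left of OsTIR-AID in grey for each fraction. CAF40 is the 1 gene of the 8 whose Nab3-AID libraries lie below those of OsTIR-AID.

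Other genes were higher in both fractions. The ribosomal protein genes RPL7A and RPS14A were 1.53 ± 0.15 and 1.62 ± 0.16 higher in nascent RNA, and POL5 and YTM1, both needed to build ribosomes, were 1.30 ± 0.12 and 1.41 ± 0.20 higher. ERG25, a sterol C-4 methyl oxidase, was 2.12 ± 0.18 higher. NVJ2 of the nucleus-vacuole junction, the tRNA splicing endonuclease gene SEN2, the ubiquitin-activating enzyme gene UBA1, the Mediator gene GAL11, IMO32 and SDD3 were higher by 0.47 to 0.92 in nascent RNA.

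A few genes went the other way. CAF40, a subunit of the Ccr4-Not complex that shortens poly(A) tails, had 20.2 and 12.5 CPM in nascent RNA of Nab3-AID, against 141.8 and 132.2 CPM in OsTIR-AID, -3.04 ± 0.18 (adjusted p = 2.82e-09). It was also lower in steady-state RNA, at 18.9 and 14.5 CPM against 57.8 and 56.8 CPM in OsTIR-AID (-1.76 ± 0.27, adjusted p = 4e-05). CAF40 starts at the far edge of the window, where YDR526C at 932 bp and YOR041C at 976 bp were higher. PMD1, which takes part in the control of meiosis, was -0.95 ± 0.09 in nascent and -0.72 ± 0.10 in steady-state RNA. BUD22, needed for ribosomal RNA processing, was lower in nascent RNA (-0.94 ± 0.15) and higher in steady-state RNA (0.61 ± 0.21), and PDX3, pyridoxine phosphate oxidase, was higher in nascent (0.31 ± 0.13) and lower in steady-state RNA (-0.75 ± 0.15). The Golgi SNARE gene SFT1 was lower in nascent RNA only (-0.55 ± 0.16, a call lost without Nab3-AID replicate 1), and UBX6, for a cofactor of the Cdc48 ATPase, in steady-state RNA only (-0.73 ± 0.13). Under K. lactis scaling PMD1, BUD22 and SFT1 turned to 0.12, 0.15 and 0.51 in nascent RNA, and PDX3, UBX6 and PMD1 to 0.92, 0.94 and 0.97 in steady-state RNA. CAF40 was still called lower in nascent RNA under that scaling, and in steady-state RNA it lost the call at -0.05 (edgeR adjusted p = 0.924).

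The test of the difference between the fractions called 4 genes higher and 14 lower in nascent than in steady-state RNA, against 15.9% and 12.2% of all rows, with a median of -0.30. CTO1, MAD1 and YTM1 were among those with a larger rise in steady-state RNA, and ERG25 was among those with a larger rise in nascent RNA. Under K. lactis scaling MAD1 kept this call, while CTO1 (-2.48, edgeR adjusted p = 0.0644), YTM1 (-2.20, adjusted p = 0.0933) and ERG25 (0.49, adjusted p = 0.739) lost it. YTM1 also lost it without Nab3-AID steady-state replicate 1 or OsTIR-AID steady-state replicate 2, and ERG25 without OsTIR-AID steady-state replicate 2. Without OsTIR-AID steady-state replicate 2 the lower count was 8, and under K. lactis scaling the counts were 0 and 1. That scaling called 25 higher and 10 lower over all genes.

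Genes with little RNA in the control had the larger changes, among these 39 and among all genes alike. Below the median control level per kb of all genes tested, nascent RNA of Nab3-AID was higher over 20 of 21 genes, with a median of 2.12, where 58.6% of all such genes were higher with a median of 0.65. Above it 10 of 18 were higher and 4 lower, with a median of 0.39, where 13.6% of genes were higher and 54.2% lower with a median of -0.33. In steady-state RNA 19 of 22 genes below the median level and 9 of 17 above it were higher, where 50.5% and 13.7% of genes were higher. Spearman's rho between change and control level was -0.75 over the 39 genes and -0.67 over 6117 genes in nascent RNA. The change and the control level share the control libraries, and these correlations are descriptions.

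Within 500 bp of the small RNA 20 of 24 genes were higher and 2 lower in nascent RNA, with a median of 1.47, and beyond 500 bp 10 of 15 were higher and 2 lower, with a median of 0.78. In steady-state RNA the counts were 20 of 24 with a median of 2.05, and 8 of 15 with a median of 0.99. Spearman's rho between change and distance was -0.20 in nascent and -0.30 in steady-state RNA (n = 39 genes, all read in the same libraries), a weak relation. Leaving out the dubious frames, the counts were 26 higher and 4 lower of 35 in the nascent and 24 and 4 of 35 in the steady-state fraction.

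**Figure D3:**
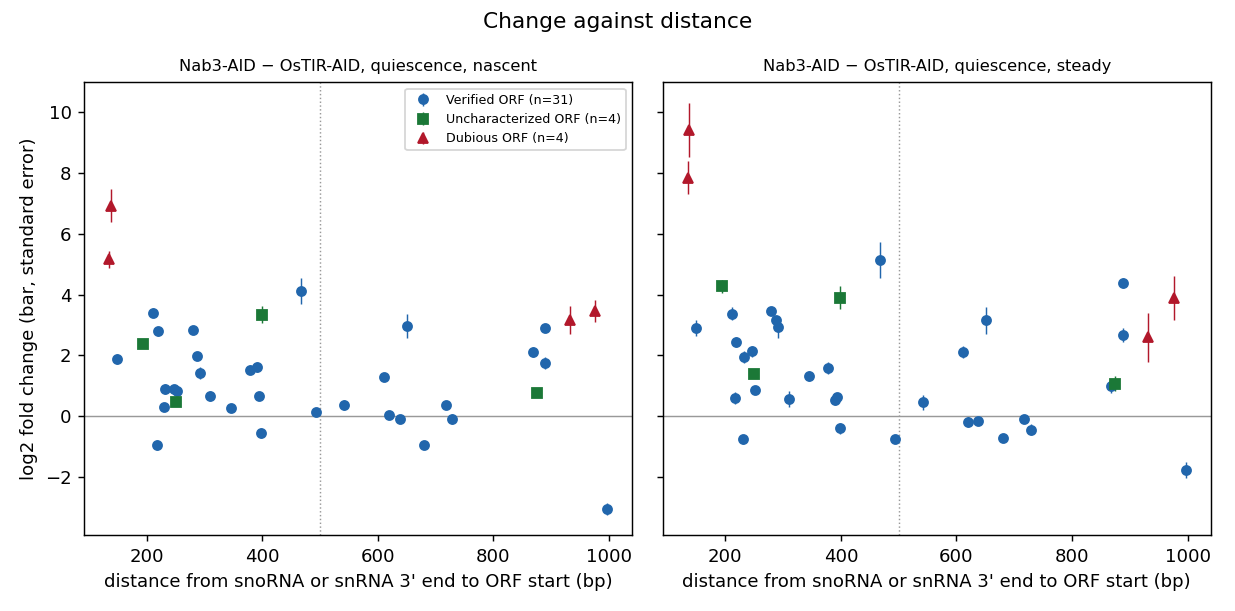
Log2 fold change in Nab3-AID over OsTIR-AID against the distance from the snoRNA or snRNA 3' end to the 5' end of the gene, in nascent (left) and steady-state RNA (right), with standard errors and with symbols for the annotation class. The points at 135 and 138 bp are the highest in steady-state RNA, genes near 889 bp are also high, and CAF40 at 997 bp is the lowest.

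Most of the small RNAs ahead of these genes were not called higher in Nab3-AID. Of 37 upstream RNAs tested in Nab3-AID, the nascent fraction gave 13 higher and 7 lower, with a median of 0.27, and the steady-state fraction 2 higher and 34 lower, with a median of -2.21. Of all 73 snoRNA and snRNA rows tested, the shares were 24.7% higher and 28.8% lower for nascent RNA, and 5.48% and 86.3% for the steady-state fraction, where the median was -2.15. For snR13 ahead of TRS31 the steady-state level was 832.4 and 1297 CPM in Nab3-AID, against 8735 and 6889 CPM in OsTIR-AID (-2.88 ± 0.33, adjusted p = 0.000331). Its nascent level was 153.6 and 244.6 CPM in Nab3-AID, against 223.5 and 305.0 CPM in OsTIR-AID, groups that overlap. Counts on a small RNA row take in mature RNA and any extended RNA that crosses it. These small RNA changes are relative to reads on genes (TMM). Under K. lactis scaling the all-gene median shifted by 1.10 in nascent and 1.72 in steady-state RNA, and small RNA values under it are not given here.

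The stretch between the small RNA and the gene was read through the authors' table of noncoding transcripts. It held 32 transcripts on the same strand that touch the gaps of 33 of the genes, 27 of them of the Nrd1-unterminated kind (NUT), and 29 overlap the small RNA. Counted whole, 19 of 31 tested were higher in nascent RNA and 27 of 31 lower in steady-state RNA of Nab3-AID, against 74.0% and 9.82% of that table, and most of them contain a small RNA. Reads that lay outside any annotated row were therefore taken as the transcript's count less the counts of the rows inside it, an alternative chosen after seeing the data. This was done for the 20 transcripts that hold at least 1 such row, where every such row lies wholly inside and no 2 of them overlap. All 20 are of the NUT kind, which is named for failed Nrd1 termination. A rise of these transcripts in Nab3-AID was thus in part given by their choice. The shares of the table set beside them are over noncoding transcripts of all kinds. The transcripts CUT447 ahead of PDX3, CUT466 ahead of RPS14A and CUT314 ahead of CAF40 hold no annotated row, lie wholly in the gap and are not among the 20. These outside reads are not confined to the gap: 26.0% to 96.0% of the outside bases of a transcript lay in it, with a median of 49.3%, and the rest lay ahead of the small RNA or past the start of the gene. On those reads 19 of 19 tested were higher and 0 lower in nascent RNA (74.3% and 8.87% of the table), with a median of 2.90 against 1.76 over all noncoding transcripts, and the steady-state fraction gave 15 of 19 higher and 0 lower (61.9% and 9.33%), with a median of 2.73. Some passed the low-count filter through the Nab3-AID libraries, where they are high, so their being tested rests on that. The transcripts after snR8 (0 and 0.64 CPM in nascent OsTIR-AID) and snR64 (1.32 and 0.95 CPM) are examples. The transcript not tested, after snR40 ahead of CAF40, had 0.96 and 0.93 CPM in nascent RNA of Nab3-AID, against 2.65 and 2.54 CPM in OsTIR-AID. In 10 of the 20 transcripts no outside base lay past the start of the gene, and of the 9 of these that were tested 9 were higher in nascent RNA, with a median of 2.90, and 7 in steady-state RNA. Of the 19 genes that the tested transcripts precede 16 were higher in nascent RNA, 1 lower and 2 not called.

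For the transcript that crosses the gap after snR13, 279 of the 710 outside bases lie in the gap and 409 past the start of TRS31. Its outside reads averaged 59.0 CPM in nascent RNA of Nab3-AID and 4.6 CPM in OsTIR-AID (3.65 ± 0.23, adjusted p = 1.57e-14), and 70.4 CPM in steady-state RNA of Nab3-AID and 4.65 CPM in OsTIR-AID. For the transcript after snR43, ahead of YCL007C, they averaged 131.9 CPM in nascent RNA of Nab3-AID and 2.15 CPM in OsTIR-AID (5.96 ± 0.39), and for the one after snR82, ahead of USE1, 102.8 CPM in Nab3-AID and 5.77 CPM in OsTIR-AID (4.16 ± 0.20). Of the 252 outside bases after snR82, 242 lie in the gap and 0 past the start of USE1. In these 3 cases the outside reads and the gene rose, while none of the 3 small RNAs was called higher in either fraction under TMM scaling.

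The authors also assembled transcripts from nascent reads of G1 and of quiescent cells. An assembled transcript that spans both the small RNA and the gene existed for 14 of the 40 genes in quiescence, 12 of them holding the whole gene, and for 3 in G1. Only UBA1 and SFT1 were joined in G1 and not in quiescence, 13 were joined in quiescence and not in G1, 1 (YMR013W-A) in both and 24 in neither. Both the gene and its small RNA lay in some assembled transcript for 36 genes in quiescence and for 28 in G1. TRS31, CTO1, YDR042C, USE1, HEM4 and FLX1 were among those joined in quiescence. Which libraries entered each assembly, and whether the assemblies had equal depth, is not given in the sources used here, so the counts were not compared by a test.

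**Figure D4:**
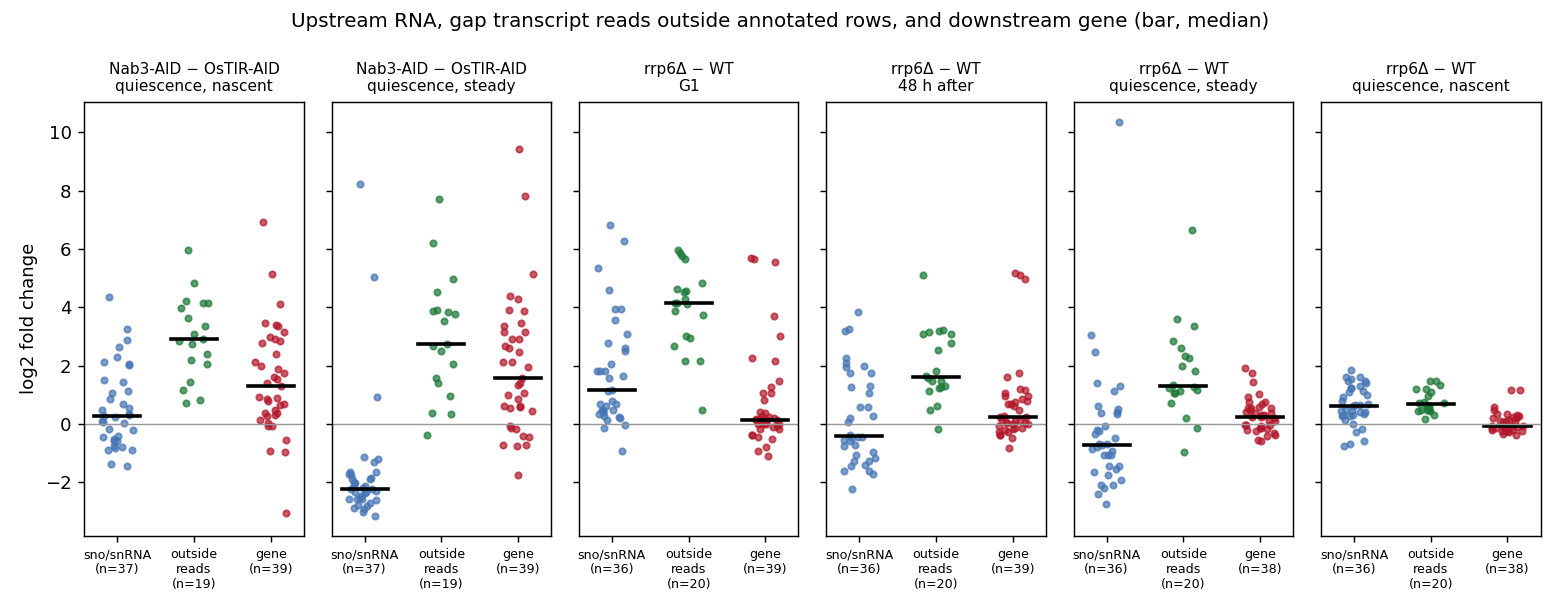
Log2 fold change of the upstream snoRNA or snRNA (blue), of the reads outside annotated rows of the noncoding transcripts that touch the gaps (green) and of the downstream gene (red), 1 point each with a bar at the median, in 6 comparisons. In Nab3-AID steady-state RNA the small RNAs have a median of -2.21, the outside reads of 2.73 and the genes of 1.59, and in rrp6Δ cells in G1 the outside reads have a median of 4.16 and the genes of 0.15. All values are relative to reads on genes (TMM).

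The same genes and transcripts were read in cells without Rrp6. In rrp6Δ cells in G1 16 of 39 genes were higher and 7 lower than in WT, against 26.2% and 22.4% of all rows, with a median of 0.15. The outside reads were higher in 20 of 20 transcripts (69.3% of the noncoding table), with a median of 4.16 against 1.40 over all noncoding transcripts. The transcript after snR8, at 0.66 and 0 CPM in WT in G1, was tested through the rrp6Δ libraries, where it is high. The median was 3.38 over the 10 transcripts with no outside base past the start of the gene and 4.55 over the 10 with such bases. Of the 20 genes that these transcripts precede, 9 were higher, 3 lower and 8 not called. For the transcript after snR13 the outside reads averaged 67.3 CPM in rrp6Δ and 3.75 CPM in WT (4.16 ± 0.21, adjusted p = 9.45e-22), whereas TRS31 was not called in G1. With K. lactis factors the all-gene median shifted by 0.10 in G1 and the counts were 16 genes higher and 5 lower. Over all genes they were 1762 higher and 664 lower.

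Around the diauxic shift the counts were of like size. At 2 h before the shift 15 of 39 were higher and 10 lower in rrp6Δ, against 31.6% and 30.4% of all rows, with a median of 0.16. At 2 h after it 20 were higher and 7 lower, against 32.6% and 30.0%, with a median of 0.40. At 24 h after it 21 were higher and 9 lower, against 31.6% and 33.6%, with a median of 0.29, and at 48 h after it 17 were higher and 5 lower, against 19.3% and 26.6%, with a median of 0.23. The split depended on the scaling: with K. lactis factors the counts were 11 higher and 17 lower at 2 h before, 9 and 22 at 2 h after, 38 and 1 at 24 h and 36 and 0 at 48 h, where the all-gene median shifted by -0.40 at 2 h before, -0.77 at 2 h after and 0.80 at 48 h, and further upward at 24 h than at 48 h. Over all genes these factors gave 1116 higher and 3389 lower at 2 h before, and 703 and 4351 at 2 h after. At 24 h they gave 5833 and 190, and at 48 h 4779 and 77. The members' counts under this scaling thus went with those of the whole table. The 48 h libraries are numbered batch 1 and batch 2 in the column names, which do not say what a batch is. In batch 1 (1 rrp6Δ and 2 WT runs) 29 of 39 genes were positive with a median of 0.36, and in batch 2 (1 and 1) 27 were positive with a median of 0.26. WT replicate 1 has a run in each batch, so the batches share a WT sample and are not separate checks. Without WT 48 h replicate 1 the lower count at 48 h was 2.

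Outside reads were higher for 20 of 20 transcripts at 2 h before the shift, 18 at 2 h after, 19 at 24 h and 13 at 48 h, against 72.8%, 67.8%, 58.9% and 41.3% of the noncoding table. At 48 h these 13 were 4 of the 10 transcripts with no outside base past the start of the gene and 9 of the 10 with such bases. Of the genes after the transcripts that were higher, 9 were higher and 5 lower at 2 h before, 13 and 2 at 2 h after, 12 and 5 at 24 h, and 6 and 1 at 48 h.

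A few genes were higher at every state. YOR277C, YCL007C, FLX1, CTO1 and YDR042C were higher at all 5 states, a pattern held by 2.78% of all rows. They lie 135 to 399 bp past their snoRNA. With 0 to 10 reads in each WT library of this set, YOR277C and YCL007C passed the low-count filter through the rrp6Δ libraries, where they are high. The same held for YDR526C, with 0 to 3 reads in each WT library. In all, 15 of 39 genes were higher at 3 or more states, against 17.6% of all rows: the 5 above and HEM4, USE1, YTM1, SFT1, POL5, PMD1, RGT1, IMO32, YDR526C and YOR041C. Of these 15, 12 (80% of them and 46.2% of the 26) were among the genes higher in both Nab3-AID fractions, which held 66.7% of all 39 genes. Of the 1088 rows of the whole table that were higher at 3 or more states 45.2% were higher in both Nab3-AID fractions, against 22.8% of all 6244 rows tested in both sets. SFT1, PMD1 and RGT1 were the exceptions. Counting only calls that were kept when each library was left out in turn, a rule chosen after seeing the data, 10 genes were higher at 3 or more states and 8 of these in both Nab3-AID fractions. IMO32, PMD1, POL5, YDR526C and YTM1 dropped out, and FLX1 was no longer higher at all 5. Under K. lactis scaling 19 genes were higher at 3 or more states, and of the 5 above YOR277C, YCL007C and YDR042C were still higher at all 5 states, while CTO1 and FLX1 were not. The share of all rows with these patterns under that scaling was not counted. YDR526C is a row of few reads, with 5 and 7 in rrp6Δ and 0 and 1 in WT at 2 h after the shift, and it lost its calls there and at 24 h without rrp6Δ replicate 2 or WT replicate 1 of that time.

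YDR042C had 46.1 and 53.7 CPM in rrp6Δ in G1, against 3.30 and 4.42 CPM in WT, a change of 3.69 ± 0.24 (adjusted p = 1.47e-10). It was highest at 2 h before the shift, with 82.5 and 85.1 CPM in rrp6Δ, against 3.25 and 3.02 CPM in WT (4.72 ± 0.23, adjusted p = 1.31e-12). At 48 h after the shift it had 26.8 and 42.4 CPM in rrp6Δ, against 12.9 and 7.93 CPM in WT, and the change was 1.62 ± 0.30. WT levels at 48 h were above those of WT in G1 and at 2 h before the shift, and the groups did not overlap at any of these 3 states.

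YCL007C had 64.1 and 62.0 CPM in rrp6Δ in G1, against 1.32 and 1.06 CPM in WT (5.69 ± 0.24, adjusted p = 7.34e-15), and YOR277C had 21.8 and 20.1 CPM in rrp6Δ, against 0.330 and 0.530 CPM in WT (5.54 ± 0.33, adjusted p = 3.9e-12). At 48 h YCL007C had 85 reads in rrp6Δ and 2 in WT, a ratio of 38.1 with a counting interval of 10.2 to 320, and YOR277C had 39 and 1, a ratio of 34.9 with an interval of 5.91 to 1420. STP22 and RIM20, the next genes behind them, were not called in G1, 2 h before, 2 h after or 24 h after the shift in rrp6Δ, and STP22 was 0.78 ± 0.15 higher at 48 h. So at these loci the frame beside the snoRNA was far higher in both strains, and the gene behind it was higher in Nab3-AID. Whether the strains differ in that was not tested, since they were read in separate sets.

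FLX1 had 115.3 and 114.4 CPM in rrp6Δ in G1, against 20.9 and 26.5 CPM in WT, 2.28 ± 0.11 higher (adjusted p = 1.89e-13), and was 0.78 to 2.32 higher at the other states. CTO1 had 64.8 and 62.2 CPM in rrp6Δ in G1, against 23.7 and 21.4 CPM in WT, 1.49 ± 0.12 higher (adjusted p = 8.61e-10), and was 0.95 to 1.74 higher at the other states. TRS31 was higher at 2 h after the shift (1.14 ± 0.13) and 24 h after it (0.78 ± 0.13), and was not called at the other states.

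RGT1, the repressor of hexose transporter genes when glucose is absent, stands 729 bp past snR69 and followed another course. It had 453.1 and 506.8 CPM in rrp6Δ in G1, against a mean of 106.6 ± 9.24 CPM in WT (SD, n = 2). The change was 2.17 ± 0.10 (edgeR adjusted p = 8.55e-14). At 2 h before the shift it had 693.9 and 681.1 CPM in rrp6Δ, against 160.1 and 161.5 CPM in WT (2.10 ± 0.10), and at 24 h after it 773.6 and 886.1 CPM in rrp6Δ, against 452.1 and 430.4 CPM in WT (0.91 ± 0.10). At 48 h it had 925.9 and 1115 CPM in rrp6Δ, against 1063 and 1094 CPM in WT, groups that overlap. In Nab3-AID RGT1 was not called in either fraction (-0.08 ± 0.17 and -0.43 ± 0.18), although the outside reads of the transcript after snR69 averaged 115.8 CPM in nascent RNA of Nab3-AID and 43.5 CPM in OsTIR-AID and were called higher. Of the 1145 outside bases of that transcript 728 lie in the gap and 234 past the start of RGT1.

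**Figure D5:**
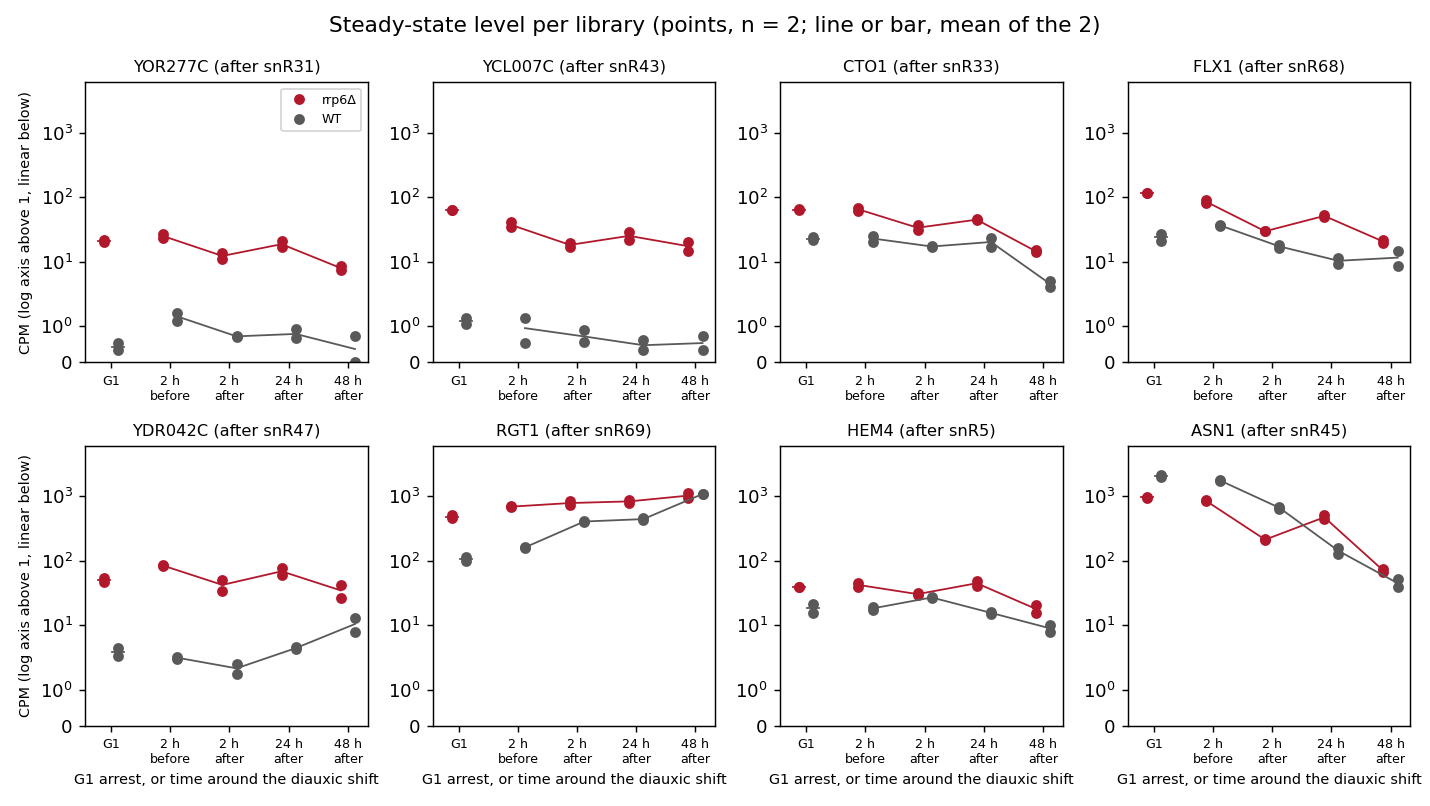
Steady-state level in CPM (log axis above 1, linear below) of 8 of the genes in rrp6Δ (red) and WT (grey) libraries, in G1 and at 4 times around the diauxic shift, with points for the 2 replicates and a bar or line at their mean. YOR277C, YCL007C and YDR042C lie above WT throughout, RGT1 meets WT at 48 h, and ASN1 lies below WT at the early states and above it at 24 h and 48 h.

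PDX3, UBA1, the dihydrofolate reductase gene DFR1, ASN1 and ERG25 appeared on the lower side in rrp6Δ. These 5 of 39 were lower at 3 or more states, against 19.8% of all rows. With only the calls kept without each library there were 4, since PDX3 lost its call at 48 h without rrp6Δ replicate 1 or WT replicate 1. K. lactis scaling turned PDX3 at 48 h to 0.52 (edgeR adjusted p = 0.000846) and DFR1 at 24 h to 0.71 (adjusted p = 0.00139). ASN1, asparagine synthetase, had 932.0 and 975.7 CPM in rrp6Δ in G1, against 2093 and 2017 CPM in WT (-1.11 ± 0.10, adjusted p = 3.4e-09), and 503.5 and 438.6 CPM in rrp6Δ at 24 h, against 128.9 and 155.0 CPM in WT (1.73 ± 0.11, adjusted p = 1.43e-12). ERG25 had 649.7 and 752.3 CPM in rrp6Δ at 2 h after the shift, against 186.5 and 191.4 CPM in WT (1.89 ± 0.11), and 174.4 and 162.1 CPM in rrp6Δ at 24 h, against 844.0 and 1034 CPM in WT (-2.48 ± 0.12, adjusted p = 2.11e-14). In all, 19 of the 39 were higher at one state and lower at another, and 1, RIM20, was called at none. The share of all rows with either pattern was not counted, so these counts are not read as a trait of the members. With only the calls kept without each library the 19 became 13, without SFT1, whose 48 h value turned to 0.47 under K. lactis scaling, and without BUD22, GAL11, PDX3, SDD3 and USE1. RPL7A and RPS14A were among the 19, lower at 2 h before the shift (-0.64 ± 0.11 and -0.48 ± 0.10) and higher at 2 h after it (1.91 ± 0.12 and 1.08 ± 0.10). At those times the 8 core proteins of snoRNA particles were lower 8 of 8 at 2 h before and higher 7 of 8 at 2 h after. The part of such shared swings in the members' counts was not tested.

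The same split by control level was made in rrp6Δ, where the change and the level again share the control libraries. In G1 12 of the 18 genes below the median control level were higher, with a median of 1.07, where 39.9% of all such genes were higher. Above it 4 of 21 were higher and 7 lower, where 10.4% and 39.1% of genes were.

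The effect of the deletion itself differed between 48 h after and 2 h before the shift for 20 of the 39 genes, 11 with a higher and 9 with a lower change at 48 h, against 21.5% and 27.0% of all rows. Without rrp6Δ 48 h replicate 2 the higher count was 7, and under K. lactis scaling, where the all-gene median shifted by 1.19, the counts were 29 and 3. Over all genes that scaling gave 4580 higher and 306 lower.

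In quiescent rrp6Δ cells of day 8 few of the genes were called. In nascent RNA 1 of 38 was higher and 0 lower by edgeR, against 1.26% and 0.435% of all rows. The 1 was ASN1, with 616.9 and 464.3 CPM in rrp6Δ, against 274.3 and 211.6 CPM in WT (1.15 ± 0.20, adjusted p = 0.0289), and the call was lost without rrp6Δ replicate 1 or WT replicate 2. At an unadjusted p under 0.05 there were 4 higher and 1 lower, and DESeq2 called 2 higher and 0 lower. In steady-state RNA 2 of 38 were higher and 1 lower, against 5.21% and 7.33% of all rows, with a median of 0.25 and of 0.04 over all genes. HEM4 had 25.5 and 28.7 CPM in rrp6Δ, against 8.72 and 11.3 CPM in WT (1.43 ± 0.26, adjusted p = 0.0128). UBX6 was 0.53 ± 0.14 higher (adjusted p = 0.0416) and RGT1 -0.57 ± 0.14 (adjusted p = 0.0367). Each of these 3 calls was lost when any 1 library was left out, 12 genes were higher and 2 lower at an unadjusted p under 0.05, and a fit with the replicate number as a block called 6 higher. The 3 dubious frames tested were not called in steady-state RNA, though their median change was 1.75. YOR277C had 13.4 and 7.04 CPM in rrp6Δ, against 2.91 and 2.61 CPM in WT, where each library held 3 of its reads. The test of the difference between fractions called 0 genes by edgeR, against 0.574% of all rows higher and 0.171% lower, where 2 were higher and 6 lower at an unadjusted p under 0.05 and DESeq2 called 1 higher and 1 lower. With K. lactis scaling the steady-state counts were 33 higher and 0 lower, where the all-gene median shifted by 1.14, and the nascent counts were 0 and 0. Over all genes the steady-state counts were then 4328 higher and 19 lower, and the nascent counts 42 and 17.

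In these quiescent rrp6Δ cells outside reads were higher for 7 of 20 transcripts in nascent RNA (16.1% of the table), with a median of 0.68, and for 12 of 20 in steady-state RNA (33.8%), with 1 lower (4.88%) and a median of 1.30. None of the 12 genes after those 12 transcripts was called. For the transcript after snR13 the outside reads averaged 70.9 CPM in rrp6Δ and 6.81 CPM in WT in steady-state RNA (3.37 ± 0.30, adjusted p = 1.07e-06), and for the one after snR82 they averaged 75.1 CPM in rrp6Δ and 12.3 CPM in WT (2.60 ± 0.27, adjusted p = 3.14e-06). Of 36 small RNAs 7 were higher and 17 lower in these steady-state libraries, with a median of -0.70, whereas in G1 23 were higher and 1 lower, with a median of 1.15. Of all snoRNA and snRNA rows 17.8% were higher and 52.1% lower in the quiescent libraries, and 61.6% were higher and 2.74% lower in G1. These small RNA values are relative to reads on genes (TMM). Under K. lactis scaling the all-gene median shifted by 1.14 in the quiescent steady-state comparison and by 0.10 in G1. Small RNA values under that scaling are not given here. On counts simulated with each row's mean over all libraries of its set, the steady-state test recovered 48% of 2-fold and 93% of 4-fold changes in the day 8 set, against 87% and 98% in the G1 comparison. These means pool fractions or states, and the changed rows came from the whole table. The rates are therefore not those of the members or of the compared libraries alone.

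Between WT quiescence and WT G1 more of the genes were lower than higher. The nascent fraction gave 5 of 37 higher and 13 lower in quiescence, against 28.5% and 34.0% of all rows, with a median of -0.34 and of -0.11 over all genes. The steady-state fraction gave 7 higher and 17 lower, against 36.7% and 38.1%, with a median of -0.80 and of -0.03 over all genes. In both fractions 12 were lower, against 29.6% of all rows, and YDR042C, OM14 and RGT1 were higher, against 23.4%. With K. lactis scaling, which shifted the all-gene median by -4.46 in nascent and -0.39 in steady-state RNA, the counts were 0 higher and 35 lower in nascent RNA and 4 higher and 13 lower in steady-state RNA. Over all genes it gave 60 higher and 5769 lower in nascent RNA, and 937 and 1719 in steady-state RNA.

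The genes lower in both fractions were RPL7A and RPS14A, the ribosome-building genes BUD22, YTM1 and POL5, the ribosome-associated TMA20, and ASN1, with NUP188, SDD3, UBA1, TRS31 and IMO32. ASN1 had 71.8 and 69.6 CPM in nascent RNA of quiescent cells, against 1218 and 1227 CPM in G1 (-4.11 ± 0.34, adjusted p = 2.02e-05), and was -5.35 ± 0.36 in steady-state RNA. RPL7A had 78.1 and 50.9 CPM in steady-state RNA of quiescent cells, against 2213 and 2072 CPM in G1 (-5.05 ± 0.28, adjusted p = 9.57e-07), and was -2.03 ± 0.24 in nascent RNA. The groups did not overlap for either gene in either fraction. The snoRNA particle proteins were lower 8 of 8 in both fractions in the same libraries.

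On the higher side stood OM14, a mitochondrial outer membrane protein gene behind the U2 snRNA gene LSR1. It had 368.1 and 502.1 CPM in nascent RNA of quiescent cells, against 32.3 and 22.6 CPM in G1 (3.99 ± 0.37, adjusted p = 3.65e-05), and in steady-state RNA 1163 and 605.2 CPM in quiescent cells, against 72.7 and 84.1 CPM in G1. YDR042C had 16.2 and 17.2 CPM in nascent RNA of quiescent cells, against 4.63 and 4.59 CPM in G1 (1.86 ± 0.27, adjusted p = 0.000493), and 46.2 and 29.1 CPM in steady-state RNA of quiescent cells, against 4.92 and 4.80 CPM in G1 (2.96 ± 0.31). Neither OM14 nor YDR042C had overlapping groups in either fraction. RGT1 was 1.26 ± 0.17 and 2.17 ± 0.18 higher. OM14 and RGT1 were called in neither Nab3-AID fraction.

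YOR277C was higher in nascent RNA (3.34 ± 0.78, adjusted p = 0.00554), at 5.15 and 2.57 CPM in quiescent cells, against 0.650 and 0.080 CPM in G1, all of them low. G1 held 8 and 1 reads, and leaving out 1 library at a time gave a change of 2.53 to 5.28. The row passed the low-count filter through the quiescent nascent libraries, where it is high, so its being tested rests on that. The outside reads were higher for 3 of 19 transcripts and lower for 5 in nascent RNA (55.3% and 11.4% of the table), and higher for 6 and lower for 5 in steady-state RNA (40.6% and 16.8%). Of the upstream small RNAs 32 of 35 were higher in steady-state RNA of quiescent cells and 0 lower, with a median of 2.07, where 87.5% of all snoRNA and snRNA rows were higher, also with a median of 2.07. The change differed between fractions for 12 genes higher and 5 lower in nascent than in steady-state RNA, against 19.8% and 17.2% of all rows, with a median of 0.48, and it was 0 higher and 33 lower under K. lactis scaling. Over all genes that scaling gave 0 higher and 5611 lower between the fractions. Without G1 nascent replicate 2 the counts between the fractions were 7 higher and 3 lower, without G1 nascent replicate 1 or G1 steady-state replicate 1 there were 3 lower, and without G1 steady-state replicate 2 there were 2 lower. Within WT around the shift 14 of 39 genes were higher and 18 lower at 48 h after than at 2 h before, against 41.6% and 42.0% of all rows, and 0 and 39 under K. lactis scaling, where the all-gene median shifted by -3.75. There 281 of all genes were higher and 5822 lower.

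Genes of the machinery were described from lists of the pathway. NRD1 was 2.35 ± 0.15 higher in nascent and 3.41 ± 0.16 higher in steady-state RNA of Nab3-AID, and 1.34 to 3.13 higher in rrp6Δ in G1 and at the 4 times around the shift. NRD1 mRNA is itself known to be cut short by the Nrd1 complex. Of the 5 cleavage factor genes 3 were higher and 0 lower in both fractions of Nab3-AID, and of the 7 genes of the APT complex, which links snoRNA ends to the cleavage machinery, 4 were higher and 2 lower in both. Of 18 genes of the nuclear exosome and the TRAMP complex the nascent fraction gave 4 higher and 6 lower, and the steady-state fraction 8 and 4. Of all rows 36.2% were higher and 32.2% lower in the nascent fraction, and 31.7% and 31.0% in the steady-state fraction. The lists were written with earlier results of these data known.

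The antisense counts over the same genes were set beside the sense counts. In nascent RNA of Nab3-AID both libraries lay above both of OsTIR-AID for 31 of 40 genes, against 79.2% of all genes, with a median difference of 1.79 on the log2(CPM + 1) scale against 1.49 over all genes. In steady-state RNA this held for 29, against 73.0%. In rrp6Δ quiescent cells it held for 23 in nascent RNA, against 38.9% of all genes, and for 28 in steady-state RNA, against 51.1%, and in G1 for 28, against 65.5%. Among the genes lower in nascent sense RNA of Nab3-AID, CAF40 had 107.4 and 131.0 antisense CPM there, against 4.19 and 5.40 in OsTIR-AID. For PMD1 these were 426.7 and 413.8 against 8.82 and 9.53, and for BUD22 96.7 and 110.6 against 5.07 and 7.31. For SFT1 the groups overlapped. MDM30, not called in sense RNA, had 113.5 and 127.6 against 9.26 and 10.8. These antisense values were not tested by a fit, and a link between the strands was not tested.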

How the data were processed

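The authors deposited tables of counts, whole numbers of reads per feature and sequencing run, with no normalization. Per the submitters' processing notes, FastQC, MultiQC, UMI-tools, STAR, SAMtools, HTSeq and deepTools were used with sacCer3/R64; versions and settings are not given in the sources used here. Per the file headers and their last lines, the deposited counts leave out reads placed at more than 1 site (7.99% to 62.6% of reads), so genes with near-identical copies, such as RPL7A and RPS14A, are uncertain.

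The 40 genes, the gene lists and the alternatives were chosen with earlier results of these data known. Runs of 1 sample were summed. Counts of all rows were fitted with edgeR 4.0.16 in R 4.3.3, separately for the auxin set, the day 8 quiescent set, the G1 and diauxic shift set and the WT set made with the Ovation kit, so no comparison crosses kits. TMM factors came from the S. cerevisiae rows of category gene, low rows were removed by filterByExpr, and p-values of the robust quasi-likelihood F-test were adjusted by Benjamini-Hochberg over all rows tested. There were 16 comparisons, 4 of them differences between changes. A standard error is the size of a change divided by the root of its F statistic. Noncoding tables took the same scaling. The genes named in each comparison were up to 5 higher and 5 lower with the largest change and no overlap between groups, any called alike in both fractions or at 3 or more rrp6Δ states, the known readthrough cases, and those at the ends of the window; names outside that rule were chosen after their values were seen. Within a genotype a shared number is a shared strain, per the labels. Same-strain deviations correlated at -0.04 to 0.11 in comparisons within WT and at -0.04 to 0.50 between the fractions or times of the 4 differences between changes, which were fitted without the strain as a block. On counts simulated with each row's mean over all libraries of the auxin set, the Nab3-AID nascent test recovered 84% of 2-fold and 99% of 4-fold changes. It called 11 of 6167 unchanged rows. Alternatives were DESeq2, K. lactis scaling, no filter, the mRNA table, a replicate block, a 500 bp window and leaving out each library.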

Additional observations from a re-analysis of the deposited data

Results flagged for a closer look

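The effect of deleting RRP6 was tested for a difference between 48 h after and 2 h before the diauxic shift, as an interaction in edgeR's quasi-likelihood fit. Of 39 genes 11 had a higher and 9 a lower rrp6Δ effect at 48 h, against 21.5% and 27.0% of all rows, and a fit with the strain as a block gave 10 and 9. The largest positive differences, on the log2 scale, were those of ASN1 (1.736), YTM1 (1.683), POL5 (1.419), ERG25 (1.29) and UBA1 (1.162), and the largest negative ones those of YOR041C (-3.244), YDR042C (-3.108), RGT1 (-2.175), SFT1 (-1.331) and UBX6 (-1.065). K. lactis scaling turned UBX6 to 0.133 and ended the call of SFT1 (-0.102, edgeR adjusted p = 0.68). The 48 h libraries are numbered batch 1 and batch 2 in the column names, which do not say what a batch is, and the part of batch in these differences was not tested.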

How the results depend on the processing

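With 2 libraries a group, a call rests on the spread of few strains, low rows such as YDR526C and the dubious frames have few reads in the controls, and replicates of one group have no other check. In all, 388 counts stayed within 1.5 times of their value and 86 did not, and of the named genes' calls under the alternatives 1257 kept their direction and side of the threshold, 69 lost the threshold and 30 changed direction, all 30 under K. lactis scaling. The cause of these changes was not tested.

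Scaling to K. lactis changed these counts of genes: in Nab3-AID nascent RNA 1 lower, in steady-state RNA 0 lower, between the fractions 0 higher and 1 lower; in rrp6Δ quiescence 0 higher in nascent RNA, 33 higher and 0 lower in steady-state RNA and 18 lower between the fractions; at 2 h before the shift 17 lower, at 2 h after 9 higher and 22 lower, at 24 h 38 higher and 1 lower, at 48 h 36 higher and 0 lower, and between 48 h and 2 h before 29 higher and 3 lower; in WT at 48 h 0 higher and 39 lower; and in WT quiescence against G1 0 higher and 35 lower in nascent RNA, 4 higher in steady-state RNA, and 0 higher and 33 lower between the fractions. Over all genes this scaling gave 3 higher and 1647 lower between the rrp6Δ quiescent fractions, and its other all-gene counts stand with the comparisons above. It turned the direction of PMD1 (0.118), BUD22 (0.148) and SFT1 (0.511) in Nab3-AID nascent RNA, of PDX3 (0.922), UBX6 (0.943) and PMD1 (0.966) in Nab3-AID steady-state RNA, and of RGT1 (0.561) in quiescent rrp6Δ. In rrp6Δ it turned UBX6 (0.339), GAL11 (0.655), DFR1 (0.714) and PMD1 (0.812) at 24 h, CAF40 (0.318), SFT1 (0.467), UBX6 (0.509) and PDX3 (0.52) at 48 h, and UBX6 (0.133) between 48 h and 2 h before. In WT it turned OM14 (-0.578), RGT1 (-0.975), UBX6 (-1.22), YDR042C (-1.941) and USE1 (-2.011) at 48 h, OM14 (-0.456), YDR042C (-2.542), RGT1 (-3.192) and TOS2 (-3.42) in nascent quiescence against G1, and RPL7A (-1.163), RPS14A (-1.478), NUP188 (-2.066), CTO1 (-2.178) and STP22 (-2.393) between the fractions.

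A window of 500 bp holds fewer genes and gave 2 lower in each Nab3-AID fraction, 0 higher in nascent and 0 lower in steady-state rrp6Δ quiescence, 4 lower in G1, 6 lower at 2 h before, 13 higher and 3 lower at 2 h after, 11 higher and 3 lower at 48 h, 6 higher and 5 lower between 48 h and 2 h before, 8 higher in WT at 48 h, and in WT quiescence against G1 3 higher and 8 lower (nascent), 4 higher and 11 lower (steady state) and 3 lower between the fractions. In rrp6Δ quiescence nascent RNA DESeq2, the mRNA table and the replicate block each gave 2 higher, the block gave 6 higher in steady-state RNA, and DESeq2 gave 1 higher and 1 lower between the fractions. Leaving out overlapped, dubious and intronic cases gave 10 higher in G1 and 4 lower at 2 h after, and the runs of batch 1 gave 3 lower at 48 h, both chosen after seeing the data. For gap transcripts, the reads outside annotated rows gave 0 lower in Nab3-AID nascent RNA, 15 higher and 0 lower in Nab3-AID steady-state RNA, 0 lower in nascent and 12 higher and 1 lower in steady-state rrp6Δ quiescence, 0 lower in each of the other 5 rrp6Δ states, 5 higher in WT at 48 h, and 3 higher (nascent) and 6 higher and 5 lower (steady state) in WT quiescence against G1. Their split by whether outside bases pass the gene start was also chosen after seeing the data. The non-collapsed noncoding table gave 2 lower in nascent rrp6Δ quiescence and 2 lower at 2 h before.

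Leaving out each library gave 27 to 28 higher and 3 to 4 lower in Nab3-AID nascent RNA, 25 to 28 and 4 to 6 in steady-state RNA, and 3 to 6 and 8 to 14 between the fractions. In rrp6Δ it gave 0 to 1 higher and 0 lower in nascent quiescence, 0 and 0 in steady-state quiescence and between its fractions, 15 to 16 and 7 in G1, 12 to 13 and 9 to 10 at 2 h before, 19 to 21 and 5 to 6 at 2 h after, 18 to 22 and 7 to 8 at 24 h, 12 to 15 and 2 to 6 at 48 h, and 7 to 11 and 9 to 10 between 48 h and 2 h before. In WT it gave 11 to 14 and 17 to 18 at 48 h, and for quiescence against G1 4 to 5 and 9 to 13 (nascent), 7 to 8 and 15 to 18 (steady state) and 7 to 16 and 2 to 7 between the fractions. Of 131 calls of named genes 112 were kept without each library and 19 were lost without at least 1. Between genotypes the replicate numbers are only numbers: same-numbered deviations correlated at -0.05 to 0.18, except 0.63 in nascent rrp6Δ quiescence, and the replicate block kept 130 of the 131 named calls, losing SFT1 at 48 h (-0.36, edgeR adjusted p = 0.0536). With the strain as a block, chosen after seeing the data, the Nab3-AID difference between fractions had 6 genes higher and 15 lower, the rrp6Δ one 0 and 0, the rrp6Δ difference between 48 h and 2 h before 10 and 9, and WT at 48 h 14 and 18, and no named call was lost.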
